A study of Mus musculus with 5 samples.

Results

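The passage from the first to the third day after a stroke in the mouse striatum was examined by setting 1 RNA library from 3 days after the lesion against 1 from 1 day after it. These are 2 of the 5 libraries of the series, taken by their time labels alone, and the sham library did not enter the comparison. Photothrombosis makes a focal infarct by light: the dye rose bengal is injected and a laser then drives clotting in the lit vessels. Here 532 nm light at 30 mW was led for 2 min through an optical fibre 3 mm deep into the right caudate putamen after 100 mg/kg of the dye. Both libraries are total RNA from focal tissue of male C57BL/6 mice aged 9 weeks, each pooled from 6 animals before extraction. The other libraries, given below only for context, are pooled focal tissue at 4 hours and 10 days and a sham library from the left side, where the laser was applied before the dye. No genotype or drug besides the dye and the anaesthetic is named in the labels.

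With 1 pooled library per time there is no replicate check, so no test between the times was made and every value describes these libraries. Levels are RPKM as deposited, that is, reads on a gene scaled by its length and by the reads of the library. The fold of a gene is log2((day 3 RPKM + 1) / (day 1 RPKM + 1)), which understates the differences of low genes, and a gene is called higher or lower by size where it is at least 1 or at most -1. A gene under 1 RPKM at both times cannot pass this limit and was not analysed. A gene that passed the filter in 1 library alone is necessarily high there, so medians over analysed genes can lie farther from 0 than medians over all genes of a list, which are given beside them where the difference is over 1.5 times. Where whole reads could be recovered, the ratio of the 2 RPKM values is given with an exact conditional binomial interval at 95%, which covers counting error only and not the spread between animals.

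In the first day after ischaemia, injured tissue releases signals that make glia and vessels secrete chemokines, and neutrophils are drawn in from the blood. Over the next days resident microglia divide, monocytes become macrophages, and both take up dead cells, myelin and blood and degrade them in lysosomes. Astrocytes turn reactive over the same period and begin to wall off the lesion.

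Of 19221 genes in the table, 11518 reached 1 RPKM at day 1 or day 3. Of these, 953 were higher at day 3 (8.27%) and 120 were lower (1.04%), and 10445 lay within the limit. Among protein-coding genes 623 were higher and 81 lower. The median fold of all genes analysed was 0.15, with an interquartile range of -0.12 to 0.45. The leading lower genes encode neutrophil proteins, chemokines and a few heat shock proteins, and the leading higher genes encode lysosomal, microglial and mitotic proteins and histones.

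**Figure D1:**
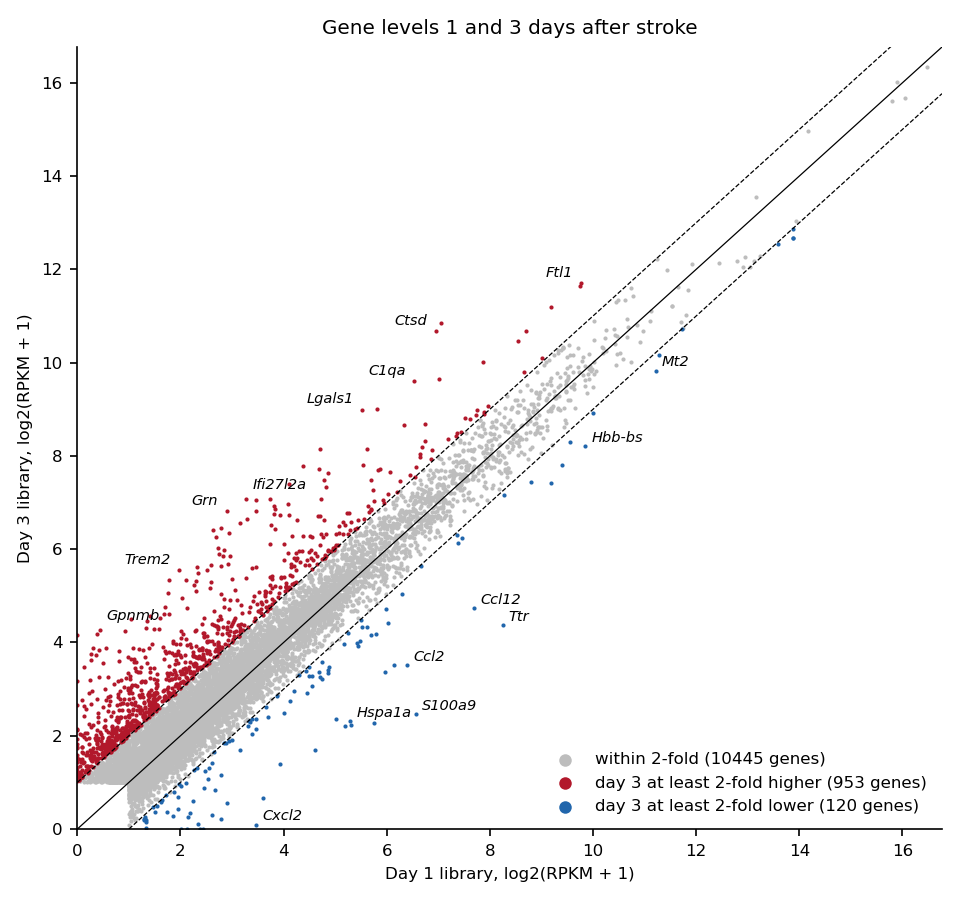
Each point is 1 of the 11518 genes, with its level in the day 1 library on the horizontal axis and in the day 3 library on the vertical axis, both as log2(RPKM + 1), and the dashed lines mark 2-fold. Of the points outside the lines, 953 lie above and 120 below, with Ctsd, Grn and Gpnmb far above and S100a9, Ttr and Ccl12 far below.

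The libraries held 46323702 reads at day 1 and 42261786 at day 3, so that 1 read on a gene of 2 kb was worth 0.0108 and 0.0118 RPKM. The mitochondrial genome took 6.02% of the reads on genes at day 1 and 4.18% at day 3, and the most read locus, CT010467.1, took 16.2% and 12.5%. Median-of-ratios scaling divided out a log2 factor of 0.25 between the libraries and moved the median of all genes to -0.05. With it 685 genes were higher and 227 lower, so the share of called genes that were higher went from 88.8% to 75.1%. The fold also moved with base composition. Across 20 equal bins of transcript GC content the median fold lay between -0.05 and 0.00 in the 6 bins lowest in GC and between 0.26 and 0.33 in the 8 bins highest in GC. The part of GC content in each result was not tested, and list medians with folds centred within the bins are given beside some of the lists that they moved.

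**Figure D2:**
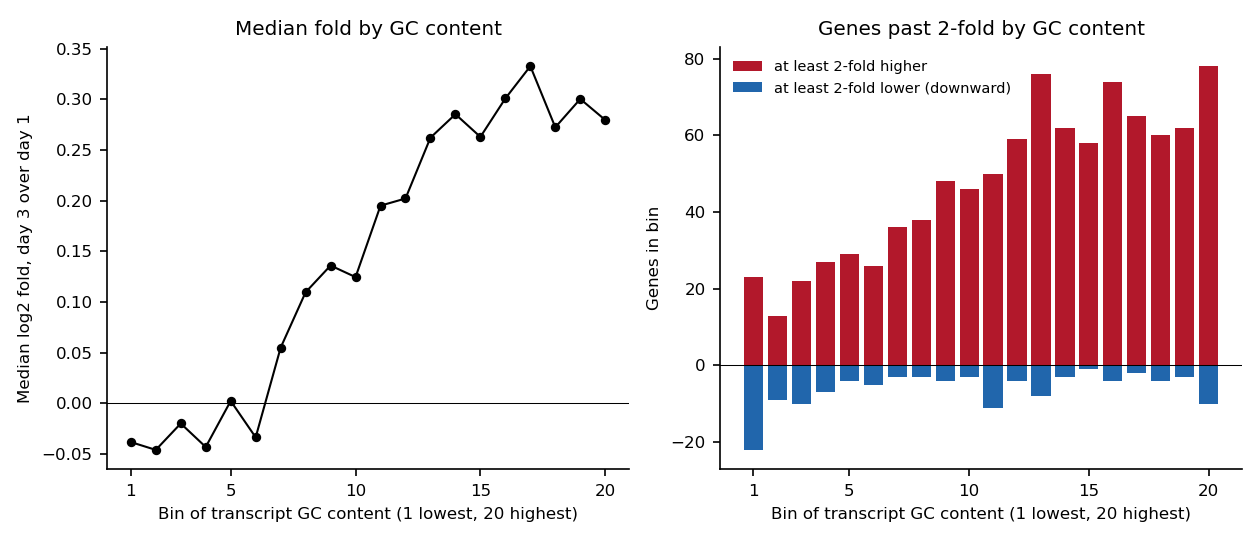
The left panel plots the median log2 fold, day 3 over day 1, in 20 bins of genes ordered by transcript GC content, and the right panel the number of genes in each bin past 2-fold, higher upward and lower downward. The median goes from -0.04 in the first bin to 0.28 in the last, and the genes called higher go from 23 to 78.

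Several genes of neutrophils and of chemokines were among those with the lowest folds. S100a9 and S100a8, which together form calprotectin, an abundant protein of neutrophils and early monocytes, had the lowest folds of the neutrophil list. S100a9 was at 93.4 RPKM at day 1 and 4.53 at day 3 (log2 fold -4.09, ratio 0.0485, interval 0.0358 to 0.0644). S100a8 was at 53 and 3.82 RPKM (log2 fold -3.49). Both were as low at day 3 as in the sham library, where they were at 5.50 and 4.65 RPKM. Retnlg, another neutrophil gene, was at 5.93 and 0.156 RPKM, and Stfa2l1, a stefin of neutrophils, at 2.87 and 0.343 RPKM. Of 20 neutrophil markers listed, 13 were in the table and 6 were analysed, of which 4 were lower and 1 was higher. The median of these 6 was -2.06 (-1.87 centred by GC content), but 3 of them reached 1 RPKM at day 1 alone, and over all 13 it was -0.39. The exception was Csf3r, the receptor of granulocyte colony-stimulating factor, at 1.26 and 5.19 RPKM (log2 fold 1.45). The summed level of these 6 genes went from 157.6 RPKM at day 1 to 14.2 at day 3, against 12.5 in sham. In such bulk tissue, fewer cells of a type and less RNA of these genes per cell cannot be told apart.

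CC chemokines, which draw monocytes and lymphocytes, split by member. Of 14 analysed, 6 were lower and 3 higher, with a median fold of -0.77 against 0.15 for all genes. The lower members were the monocyte attractants Ccl2, Ccl7 and Ccl12, the macrophage inflammatory proteins Ccl3 and Ccl4, and Ccl17. Ccl12 was at 206 RPKM at day 1 and 25.7 at day 3 (log2 fold -2.96, ratio 0.124, interval 0.110 to 0.140). Ccl2 was at 83.0 and 10.4 RPKM and Ccl7 at 38.7 and 3.69. Ccl3 and Ccl4, which lie in the same cluster, moved alike, from 69.1 to 10.4 RPKM and from 61.3 to 9.32. These 5 genes remained above their sham levels at day 3 only in part: Ccl3 was at 3.37 RPKM in sham, Ccl4 at 3.61, Ccl2 at 5.93 and Ccl12 at 21.1, all below day 3, while Ccl7 was at 4.11, above it.

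The 3 CC chemokines on the other side were Ccl8, another monocyte attractant, Ccl19, a ligand of CCR7, and Ccl5, made by T cells among others. Ccl8 was at 1.18 RPKM at day 1 and 7.55 at day 3 (log2 fold 1.97, ratio 6.38, interval 3.59 to 12.2). Ccl19 was at 0.398 and 2.54 RPKM and Ccl5 at 0.607 and 2.37. With median-of-ratios scaling 2 members were higher and 7 lower. The other members lay within the limit, Ccl27a at -0.31, Ccl21a at -0.55, Ccl11 at -0.66, Ccl6 at -0.69 and Ccl9 at -0.86.

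Among CXC chemokines, 4 of 9 were lower and 1 higher (median -0.72, -0.54 centred by GC content, and -0.16 over all 13 in the table). Cxcl2, a ligand of the neutrophil receptor CXCR2, was at 10.0 RPKM at day 1 and 0.0687 at day 3 (log2 fold -3.37, ratio 0.00684, interval 0.0014 to 0.0201). Its relatives Cxcl1 and Cxcl3 were at 14.2 and 1.64 RPKM and at 1.52 and 0.0135 RPKM. Pf4, the platelet factor 4 gene, was at 13.7 and 6.20 RPKM. Cxcl16, a transmembrane chemokine that also binds oxidised lipoprotein, was the higher member, at 4.31 and 13.8 RPKM (log2 fold 1.47). The 3 CXCR2 ligands were thus all lower by size, and Cxcl16 stood on the other side.

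The list of IL-1, TNF and IL-6 family cytokine genes also holds regulators and inflammasome genes that are not cytokines. Of its 17 analysed members 5 were lower and 2 higher (median -0.66, and -0.21 over all 28 listed). Il1rn, the antagonist of the IL-1 receptor, was at 5.14 and 0.227 RPKM (log2 fold -2.32, ratio 0.044, interval 0.0287 to 0.0649). Il1b was at 3.45 and 0.199 RPKM, with a gene on the opposite strand whose reads cannot be told apart here. Lif, an IL-6 family cytokine, was at 2.87 and 0.609 RPKM, and Ptges, the prostaglandin E synthase gene, at 4.57 and 1.36. The 2 higher genes belong to inflammasome signalling: Pycard, its adaptor, at 4.34 and 19.9 RPKM (log2 fold 1.97), and Gsdmd, the pore protein cut by inflammatory caspases, at 1.39 and 6.41 RPKM. Il18, an IL-1 family cytokine, was at 8.63 and 7.71 RPKM (log2 fold -0.14), a value named after it was seen.

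Of the heat shock and chaperone genes, 3 were lower, and most others lay within the limit. Other heat-induced members were among the latter, with log2 folds of -0.08 for Dnajb1, 0.01 for Bag3, -0.21 for Hsph1 and -0.35 for Hsp90aa1, which are named after their values were seen. Hspa1a and Hspa1b are near-identical HSP70 genes whose reads the counting could split between them. Hspa1a was at 38.3 RPKM at day 1 and 3.99 at day 3 (log2 fold -2.98, ratio 0.104, interval 0.0911 to 0.119), and Hspa1b at 35.3 and 3.62. Gm20481, a predicted gene over Hspa1a on the other strand, gave 31.2 and 4.11 RPKM and is no separate evidence. Hspb1, the small heat shock protein HSP27, was at 54.6 and 17.1 RPKM (log2 fold -1.62). Of 25 genes, 3 were lower and 1 higher, and the median was -0.11 (-0.07 over all 29 in the table). The higher gene was Cryab, the small heat shock protein of astrocytes and oligodendrocytes, at 72.9 and 148 RPKM (log2 fold 1.02, and under the limit after median-of-ratios scaling).

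The 220 bases before the start sites of the 3 lower heat shock genes are shown because each holds the letters GAANNTTC, the core of the element bound by heat shock factor. The letters are the same on both strands. Sequences are from RefSeq on GRCm38.p6, read 5′ to 3′ on the gene's strand up to the last base before the start site, with matches in capitals.
Hspa1a (chr17:34972157-34972376, minus strand): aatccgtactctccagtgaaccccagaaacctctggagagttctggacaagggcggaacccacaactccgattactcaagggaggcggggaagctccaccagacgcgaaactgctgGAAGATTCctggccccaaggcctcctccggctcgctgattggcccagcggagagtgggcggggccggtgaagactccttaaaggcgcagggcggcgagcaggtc
Hspa1b (chr17:34959239-34959458, minus strand): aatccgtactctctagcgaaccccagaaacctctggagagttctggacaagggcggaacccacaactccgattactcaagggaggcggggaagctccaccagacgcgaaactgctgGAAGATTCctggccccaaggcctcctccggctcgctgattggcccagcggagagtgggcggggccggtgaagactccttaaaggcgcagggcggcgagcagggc
Hspb1 (chr5:135887699-135887918, plus strand): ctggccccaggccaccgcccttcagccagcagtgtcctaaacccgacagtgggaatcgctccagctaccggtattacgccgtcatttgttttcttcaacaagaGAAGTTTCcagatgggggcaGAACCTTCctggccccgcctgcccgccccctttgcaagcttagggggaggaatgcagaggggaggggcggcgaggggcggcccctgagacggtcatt
The windows of Hspa1a and Hspa1b differ at 3 of 220 bases. Among chaperone genes within the limit, 9 of 16 with a promoter in the table hold these letters between 250 bases before and 50 after a start site, and 9.04% of all 27025 genes do. The match therefore marks chaperone genes of both kinds here and is a description of the letters only.

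Immediate early genes, which neurons and glia switch on within minutes of a stimulus, had 7 of 35 members lower and 1 higher. Their median was -0.27, and -0.13 over all 40 listed. Fos was at 9.46 and 3.09 RPKM (log2 fold -1.36, ratio 0.326, interval 0.271 to 0.392), and it had been at 12.1 RPKM at 4 hours and 2.48 in sham. Gadd45b, a stress-induced growth arrest gene, was at 25.6 and 8.26 RPKM, and Ccn1, a matricellular protein gene, at 16.5 and 5.70. Nr4a1, an orphan nuclear receptor, was the exception at 10.3 and 24.4 RPKM (log2 fold 1.17, and under the limit after median-of-ratios scaling). Of the 6 lower members with a promoter in the table, 0 hold the AP-1 letters TGACTCA, 1 holds the CRE letters TGACGTCA and 3 hold the E-box CACGTG, which stand in 5.95%, 2.03% and 8.09% of all genes.

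Several single genes of injury were lower as well. Sprr1a, which injured neurons switch on as axons regrow, was measured at 23.3 and 2.23 RPKM (log2 fold -2.91). Ptx3, a secreted pattern receptor that reactive astrocytes and myeloid cells make, was at 11.1 and 0.591 RPKM (log2 fold -2.93). Mt2, a metallothionein gene, went from 2372 RPKM at day 1 to 910 at day 3 (log2 fold -1.38). Mmp3, the stromelysin that opens matrix, was at 5.95 and 1.22 RPKM, whereas Mmp12 and Mmp2 were higher, from 0.934 to 3.30 and from 0.237 to 1.51 RPKM. Gdf15, a stress-induced secreted factor, was at 4.90 and 1.47 RPKM.

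**Figure D3:**
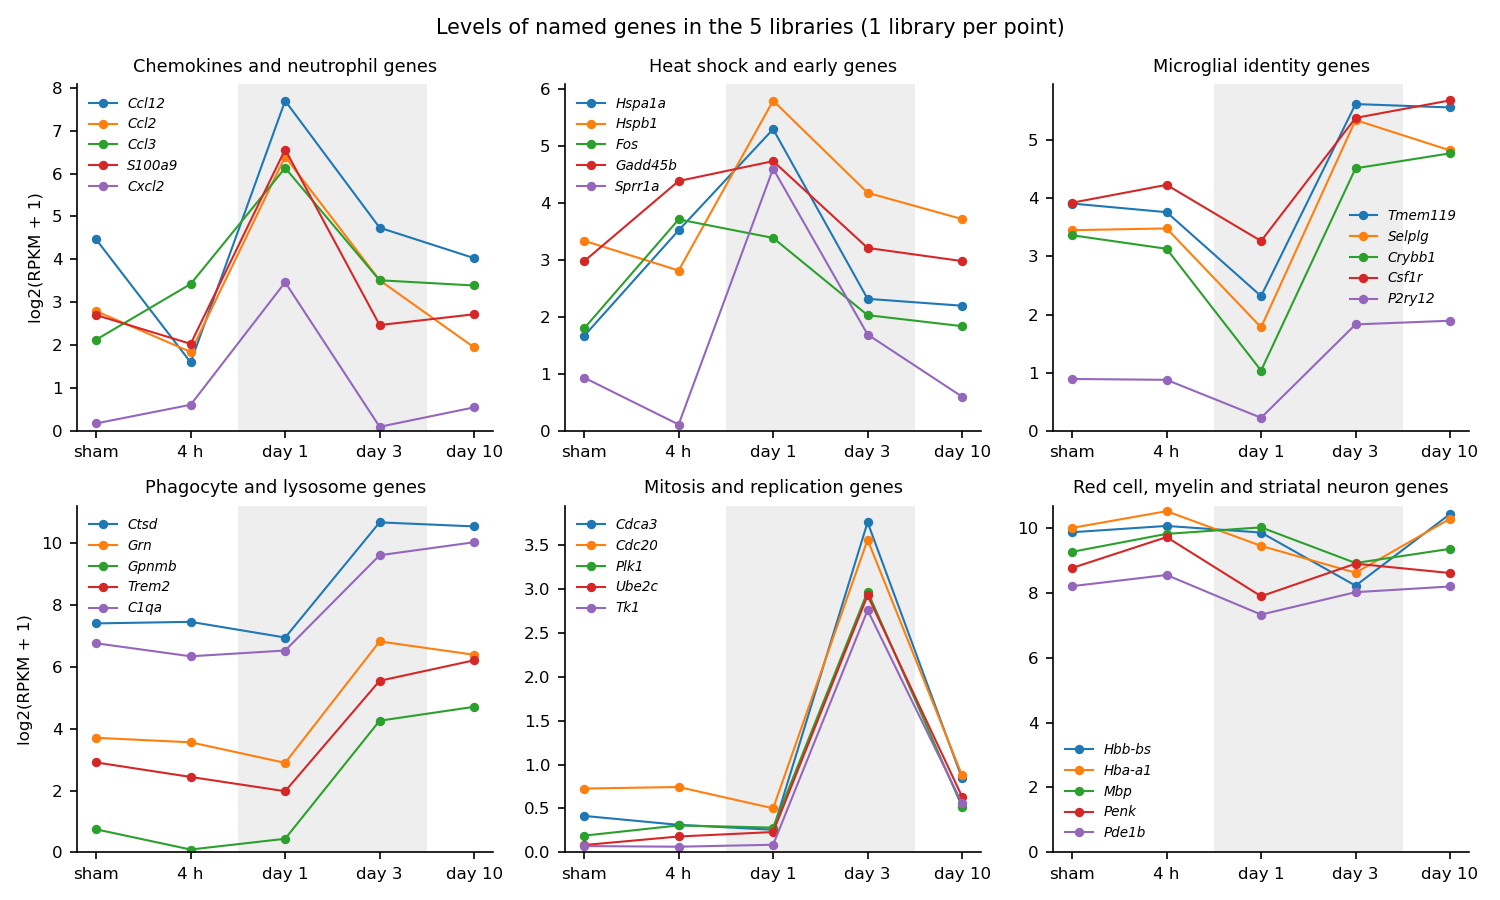
Each panel plots log2(RPKM + 1) of named genes in the 5 libraries, 1 library per point, with the day 1 and day 3 libraries shaded. The chemokine, S100a9 and heat shock genes peak at day 1, the microglial genes have their lowest value there, and the mitosis genes have their highest value at day 3.

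Genes that define resident microglia were higher at day 3 almost throughout. Of 19 analysed, 16 were higher and 0 lower, with a median fold of 1.82 (1.69 after median-of-ratios scaling, which left 14 higher). The other members, P2ry13 (1.00 after rounding), Cx3cr1 (0.99) and Sall1 (0.74), lay within the limit. Selplg, the ligand of P-selectin, had the highest fold of the list at 2.44 RPKM at day 1 and 39.6 at day 3 (log2 fold 3.56, ratio 16.3, interval 14.3 to 18.6). Tmem119, a membrane protein gene used to tell resident microglia from incoming macrophages, was at 3.98 and 48.1 RPKM (log2 fold 3.30). Crybb1, a crystallin gene of microglia, was at 1.05 and 21.8 RPKM, and P2ry12, the purinergic receptor that guides microglial processes, at 0.170 and 2.56. Csf1r, the receptor that keeps microglia alive, was at 8.60 and 40.6 RPKM.

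For 16 of the 19 genes day 1 was the lowest of the 5 libraries. This was not particular to microglia. It also held for 20 of 26 striatal projection neuron genes and 32 of 43 replication-dependent histones, but for 3 of 24 activated phagocyte genes. Tmem119 was at 14.0 RPKM in sham, 12.5 at 4 hours and 46.2 at day 10, so the day 1 value lay below and the day 3 value above the sham level. Crybb1 was at 9.29, 7.75 and 26.3 RPKM and Selplg at 9.93, 10.2 and 27.3 in the same 3 libraries. Fcrls, an Fc receptor-like gene of microglia, differed, since its day 1 value of 12.6 RPKM was above the 8.54 in sham before reaching 90.7 at day 3. Olfml3, a secreted olfactomedin protein of microglia, was at 1.3 and 13.5 RPKM. Further members were Ltc4s (3.17), Rnase4 (2.06, whose exons overlap those of Ang), Siglech (1.82), Gpr34 (1.6), P2ry6 (1.38), Slc2a5 (1.08), Sparc (1.07, which endothelial cells and astrocytes make too) and Bin2 (1.04), given as log2 folds. The summed level of the 19 genes was 94.6 RPKM at day 1, 536.3 at day 3 and 134.3 in sham.

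Genes of activated, phagocytic myeloid cells were higher too, with 15 of 24 higher and 0 lower (median 1.52, and 0.96 over all 30 listed). Gpnmb, a glycoprotein of phagosomes, was at 0.358 RPKM at day 1 and 18.1 at day 3 (log2 fold 3.82, ratio 50.7, interval 38.7 to 67.7). Trem2, the lipid receptor that microglia need to respond to debris, was at 2.94 and 45.8 RPKM (log2 fold 3.57, ratio 15.6, interval 13.9 to 17.4). Lgals1, the galectin-1 gene, which astrocytes also express, was at 45.0 and 509 RPKM. Ifi30, a thiol reductase of lysosomes, was at 5.17 and 84.1 RPKM. All 4 were also above sham at day 3, where Gpnmb was at 0.677 RPKM and Trem2 at 6.52.

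Markers of blood-derived monocytes and macrophages were more mixed, with 7 of 16 higher and 1 lower (median 0.99, 1.17 centred by GC content, and 0.47 over all 27 in the table). Stab1, a scavenger receptor of tissue macrophages, was at 1.15 and 11.5 RPKM (log2 fold 2.54). Arg1, the arginase gene of repair-type macrophages, was at 1.37 RPKM at day 1, 10.2 at day 3 and 0.0841 at day 10. Adgre1, which encodes a macrophage surface receptor, was at 0.732 and 6.45 RPKM, and Lyz2, the macrophage lysozyme gene, at 26.4 and 97.9. Pf4 was the lower member (log2 fold -1.03). Microglia also express Adgre1 and Lyz2 to some extent, so these values do not separate the cell types.

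Genes of lysosomal enzymes and membrane proteins were higher. Of 35 analysed, 19 were higher and 0 lower, and the median was 1.23. Over all 36 listed, 36 folds were above 0. Grn, the progranulin gene, which regulates lysosomal function, had the largest fold of any protein-coding gene, at 6.44 and 112 RPKM (log2 fold 3.93, ratio 17.4, interval 15.9 to 19.1). Laptm5, a lysosomal membrane protein of blood cells and microglia, was at 14.2 and 106 RPKM. Naglu, which degrades heparan sulfate, was at 1.79 and 18.6 RPKM, and Lgmn, the asparagine endopeptidase legumain, at 26.5 and 178. Grn overlaps Fam171a2 on the opposite strand.

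The cathepsins, the proteases of lysosomes, had 7 of 10 members higher and 0 lower (median 1.85). Ctsd, an aspartic protease, was at 122 RPKM at day 1 and 1631 at day 3 (log2 fold 3.72, ratio 13.3, interval 13 to 13.7). Its exons on chromosome 7 are shared with the predicted readthrough gene Gm49369, whose 132 and 1844 RPKM are therefore no separate evidence. Ctsh was at 2.21 and 23.4 RPKM, Ctsz at 48.3 and 283, Ctsa at 15 and 68.6, and Ctsb at 56.0 and 206. Ctss, a cathepsin of antigen-presenting cells, was at 16.1 and 59.8 RPKM, and Ctsl at 5.47 and 19.6. Ctsc (log2 fold 0.61), Ctsf (0.52) and Ctsk, the osteoclast protease (-0.54), stayed within the limit.

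The proton pump that acidifies lysosomes gave another picture. Of 15 V-ATPase subunit genes, 0 were higher and 0 lower, with a median of 0.10, whose sign turned to -0.15 after median-of-ratios scaling. The highest, Atp6v0e, a membrane subunit, was at 19.0 and 32.7 RPKM (log2 fold 0.75), and Atp6v0c, the ring subunit, at 192 and 311. The lowest, Atp6v1d, was at 19.7 and 10.4 RPKM (log2 fold -0.87), and 1 member was lower after median-of-ratios scaling. Neurons and other cells carry this pump too, and their part in these values was not tested. The E-box CACGTG, the letters within the element of the lysosomal regulator TFEB, stood in 3 of the 5 higher cathepsin genes and 3 of the 15 higher lysosomal genes with a promoter in the table, and in 5 of the 14 lysosomal genes within the limit.

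**Figure D4:**
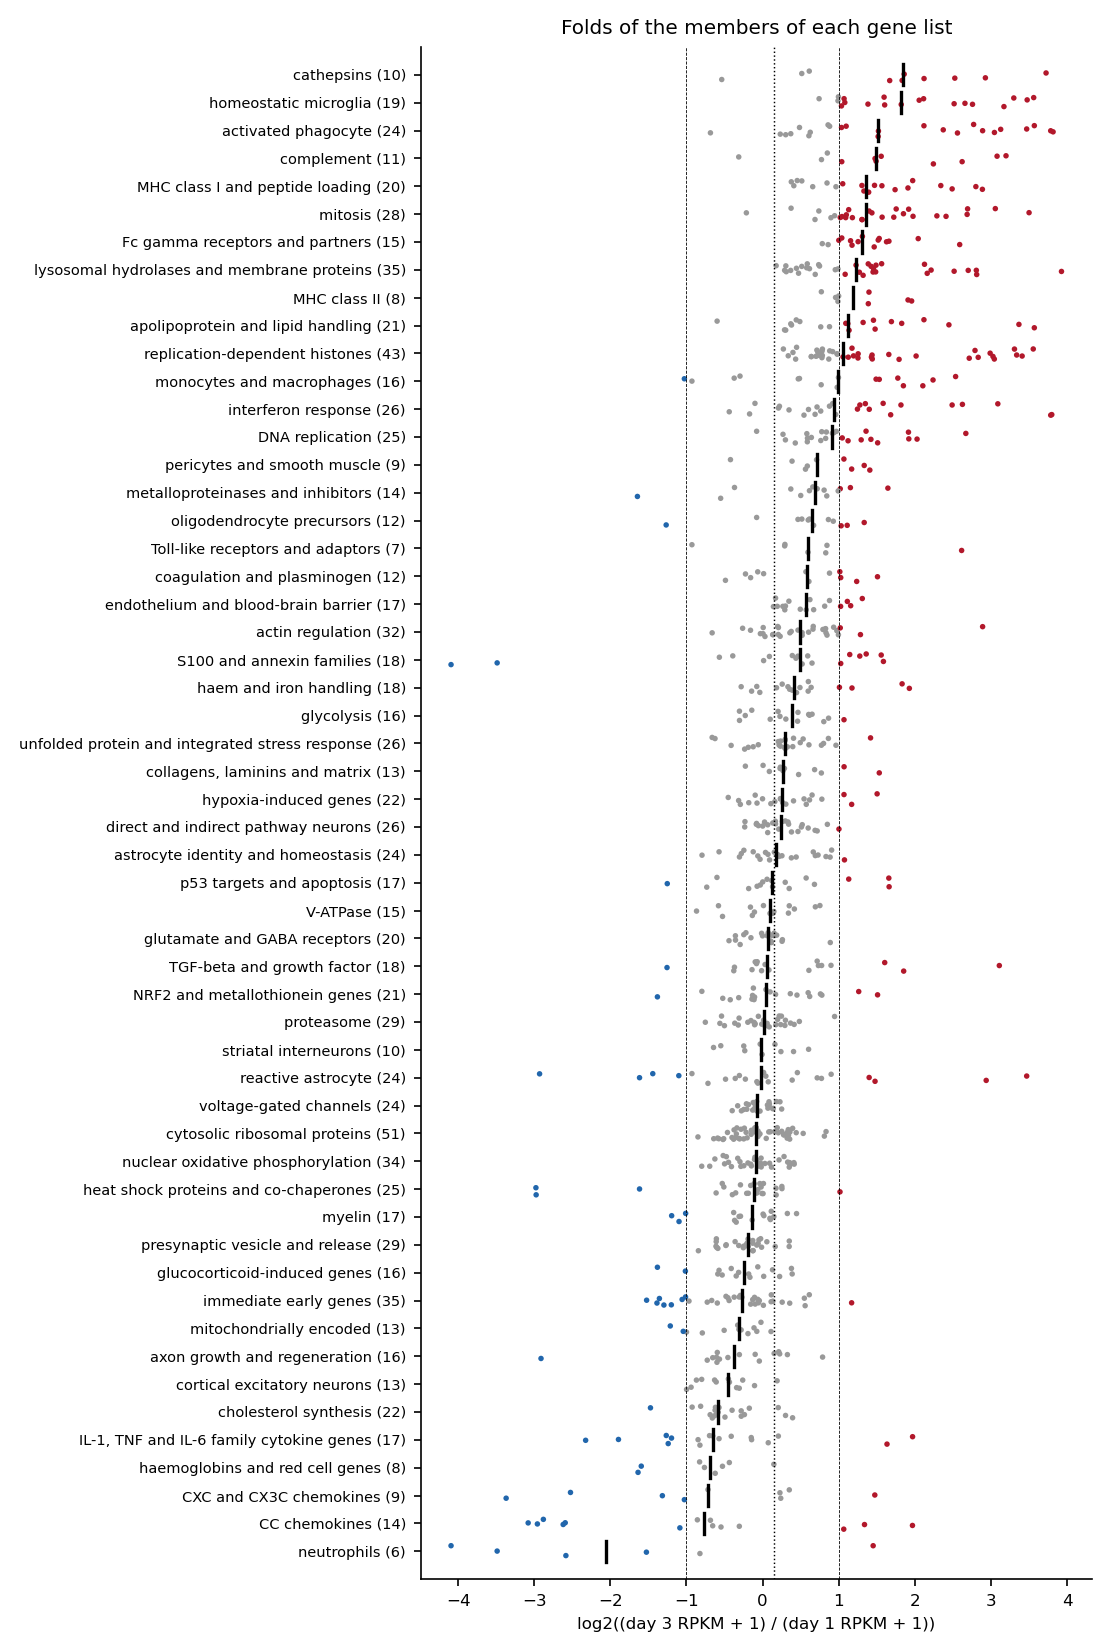
Each point is 1 gene of the list named at the left, with the number analysed in brackets, at its log2 fold of day 3 over day 1; black bars are list medians, dashed lines mark 2-fold and the dotted line the median of all genes, 0.15. Cathepsins and microglia lie at the top with medians of 1.85 and 1.82. Neutrophil genes lie at the bottom with -2.06 over the 6 analysed, against -0.39 over all 13 in the table. The ribosomal protein list has a median of -0.09 with 0 genes past 2-fold, and lists with under 6 genes analysed are left out.

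Receptors and recognition molecules of phagocytes followed. Complement genes had 8 of 11 members higher and 0 lower (median 1.49, and 0.81 over all 18 in the table), led by the C1q chains, which tag debris and synapses. C1qc was at 54.8 and 512 RPKM (log2 fold 3.20, ratio 9.33, interval 8.95 to 9.73), C1qa at 91.3 and 780, and C1qb at 129 and 798. In sham these 3 chains were at 63.1, 108 and 115 RPKM, close to day 1. Fc gamma receptors and their signalling partners had 13 of 15 higher and 0 lower (median 1.31), with 9 higher after median-of-ratios scaling. Cyba, a subunit of the phagocyte oxidase, was at 13.3 and 84.9 RPKM, Ncf1, another oxidase subunit, at 2.30 and 12.6, and Plcg2, a phospholipase of immune receptors, at 0.703 and 4.27. Among Toll-like receptor genes 1 of 7 was higher, Unc93b1, the chaperone of endosomal receptors, at 3.37 and 25.8 RPKM.

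Antigen presentation and interferon genes were higher too. MHC class I genes had 13 of 20 members higher and 0 lower (median 1.36), including H2-K1 at 16 and 125 RPKM and H2-D1 at 25.6 and 134. Members of this family are similar in sequence, so reads may be split between them. Class II genes, which present peptides to helper T cells, were low at both times, and 4 of 8 were higher and 0 lower (median 1.19). H2-Ab1 was at 1.67 and 9.40 RPKM, H2-DMb1 at 1.00 and 6.53, H2-Eb1 at 1.59 and 5.82, and Cd74, the invariant chain, at 2.77 and 8.88. H2-Aa was at 1.06 and 3.12 RPKM, just under the limit, with H2-DMa (0.99), H2-Oa (0.96) and H2-DMb2 (0.77) beside it. At day 10 Cd74 was at 43.1 RPKM and H2-Aa at 22.5, well above both times.

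Interferon response genes had 12 of 26 members higher and 0 lower, with a median of 0.94 (1.10 with folds centred by GC content). Ifi27l2a, a small interferon-induced protein, was at 8.67 and 134 RPKM (log2 fold 3.80, ratio 15.4, interval 12.5 to 19.2). Oas1a, a sensor of double-stranded RNA, was at 1.57 and 20.9 RPKM, and Bst2, or tetherin, at 16.3 and 105. Their sham levels were 8.37, 2.89 and 13.8 RPKM, that of Oas1a above its day 1 level. T and NK cell markers were few, with 4 of 18 listed genes analysed, of which Gzma and Ccl5 were higher (log2 folds 1.24 and 1.07) and Trbc2, a T cell receptor constant region, was lower, at 27.9 and 9.10 RPKM.

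Lipid and iron handling genes were higher in part. Apolipoprotein and lipid genes had 12 of 21 members higher and 0 lower (median 1.12). Apoc2, the cofactor of lipoprotein lipase, was at 0.292 and 12.3 RPKM, although its exons overlap those of Gm44805. Plin2, which coats lipid droplets, was at 17.0 and 77.4 RPKM (log2 fold 2.12, ratio 4.54, interval 4.28 to 4.82), and Fabp7, a fatty acid carrier of astrocyte and progenitor cells, at 1.21 and 11.1. Ftl1, the ferritin light chain, was at 875 and 3333 RPKM (log2 fold 1.93), and Slc11a1, an iron exporter of phagosomes, at 1.48 and 7.84. Of 18 haem and iron genes 4 were higher and 0 lower, and 2 were higher with median-of-ratios scaling or with GC centring. Cholesterol synthesis genes went the other way, with 19 of 22 folds below 0 (median -0.59, -0.44 centred by GC content), though only Msmo1, a sterol oxidase, passed the limit, at 7.95 and 2.23 RPKM. After median-of-ratios scaling 3 of 22 were lower.

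Cell division genes were near 0 at day 1 and present at day 3. Of 50 mitosis genes listed, 22 were higher and 0 lower, and 49 folds were above 0, with a median fold of 0.82. The median level of the 50 was 0.0954 RPKM at day 1 and 1.27 at day 3. The 28 that were analysed had a median fold of 1.35, and 26 of them reached 1 RPKM at day 3 alone. Cdca3, which triggers mitotic entry, was at 0.196 and 12.5 RPKM (log2 fold 3.5, ratio 64.0, interval 37.2 to 121). Cdc20, the activator of the anaphase-promoting complex, was at 0.416 and 10.8 RPKM (ratio 25.9, interval 16.2 to 44.2). Ube2c, the ubiquitin-conjugating enzyme of that complex, was at 0.174 and 6.60 RPKM, and Plk1, a mitotic kinase, at 0.216 and 6.83. The median level of the 50 listed genes was 0.0779 RPKM in sham, 0.141 at 4 hours and 0.207 at day 10.

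DNA replication genes had 10 of 25 members higher and 0 lower (median 0.92, and 0.59 over all 37 listed). Tk1, the thymidine kinase of S phase, was at 0.0623 and 5.76 RPKM (log2 fold 2.67, ratio 92.5, interval 45.7 to 223). Rrm2, a subunit of ribonucleotide reductase, was at 0.171 and 3.78 RPKM, Uhrf1, which passes on DNA methylation, at 0.203 and 3.56, and Mcm5, of the replicative helicase, at 1.36 and 7.90. Replication-dependent histones had 22 of 43 members higher and 0 lower, and all folds of the 50 that were measured were above 0. Hist1h2an was at 5.49 and 75.4 RPKM and Hist1h2ah at 7.94 and 94.1, and both have a predicted gene on the opposite strand. Copies of these histones are near-identical, so reads may be split among them, and their number does not count separate events. Which cells divided was not measured, since bulk RNA does not tie these genes to a cell type.

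The 130 bases before the start sites of 4 mitosis genes are shown, the 4 highest-fold members whose window holds both the CHR letters TTTGAA and the CCAAT box. The CHR, or cell cycle genes homology region, is bound by the complex that represses mitotic genes in resting cells and the one that activates them in late cell cycle, and the CCAAT box is bound by NF-Y. Capitals mark TTTGAA or CCAAT or their reverse complements TTCAAA and ATTGG, and no marked runs overlap. Sequences are from RefSeq on GRCm38.p6, on the strand of the gene.
Cdc20 (chr4:118437344-118437473, minus strand): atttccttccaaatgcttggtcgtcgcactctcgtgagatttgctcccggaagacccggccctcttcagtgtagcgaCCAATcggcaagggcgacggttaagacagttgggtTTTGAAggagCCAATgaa
Ube2c (chr2:164769799-164769928, plus strand): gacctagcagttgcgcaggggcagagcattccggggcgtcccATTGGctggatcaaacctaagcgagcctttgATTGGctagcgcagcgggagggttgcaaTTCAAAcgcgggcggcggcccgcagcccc
Cdk1 (chr10:69352913-69353042, minus strand): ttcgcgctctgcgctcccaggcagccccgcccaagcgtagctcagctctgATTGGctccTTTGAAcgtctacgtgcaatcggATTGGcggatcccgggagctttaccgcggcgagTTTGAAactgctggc
Kif22 (chr7:127042421-127042550, minus strand): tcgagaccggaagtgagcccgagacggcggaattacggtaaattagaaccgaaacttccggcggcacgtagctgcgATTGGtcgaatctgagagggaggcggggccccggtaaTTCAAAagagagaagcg
Cdk1, the kinase of mitotic entry, was at 0.118 and 4.94 RPKM, and Kif22, a chromosome-moving kinesin, at 0.304 and 2.53. Over the wider promoters, from 250 bases before to 50 after a start site, 15 of the 17 higher mitosis genes in the table hold the CHR letters and 16 the CCAAT box, against 20.2% and 41.1% of all genes. Among mitosis genes within the limit, 2 of 4 hold the CHR letters and 3 the CCAAT box. Of the 10 higher replication genes, 2 hold the CHR letters, 7 the CCAAT box and 2 the E2F letters TTTGGCGC, which stand in 0.585% of all genes. Among replication genes within the limit, 1 of 14 holds the CHR letters, 5 the CCAAT box and 2 the E2F letters. These are counts of letters, and binding was not measured.

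Reactive astrocyte genes split in both directions, with 4 of 24 higher and 4 lower. Their median was -0.02, and -0.04 over all 34 in the table. Vim, the vimentin gene, was at 13.1 RPKM at day 1 and 107 at day 3 (log2 fold 2.94, ratio 8.17, interval 7.73 to 8.64), though myeloid and vascular cells make it too. C4b, a complement gene of reactive astrocytes, was at 4.13 and 13.3 RPKM. On the lower side, Tm4sf1, a tetraspanin-like protein, was at 24.9 and 8.54 RPKM, and Sphk1, a sphingosine kinase, at 3.06 and 0.892, beside Ptx3 and Hspb1 given above. Genes of astrocyte identity lay near 0 (median 0.18, -0.03 after median-of-ratios scaling), with Kcnj10, the potassium channel Kir4.1, as the member past the limit, at 2.87 and 7.16 RPKM and at 6.20 in sham. It lay under the limit after median-of-ratios scaling.

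Some vessel genes were higher on the deposited scale, where 8.27% of all genes were. Endothelial genes had 4 of 17 members higher and 0 lower (median 0.57, and 0.35 over all 27 in the table), led by Cldn5, the tight junction claudin, at 17.8 and 45.7 RPKM. After median-of-ratios scaling 1 of 17 was past the limit, near the share of all genes then higher, 685 of 11518. Pericyte and smooth muscle genes had 4 of 9 higher (median 0.71), among them Vtn, the vitronectin gene, at 12.6 and 35.2 RPKM. Growth factor genes had a median of 0.06 (0.03 over all 30 listed). It turned to -0.10 after median-of-ratios scaling and to -0.03 with GC centring. Of 18 growth factor genes analysed, 3 were higher and 1 lower. Of these, Igfbp2, a binder of insulin-like growth factors, was at 13 and 120 RPKM (log2 fold 3.11, ratio 9.22, interval 8.45 to 10.1), and Tgfb1 at 1.86 and 7.71. Collagen, laminin and matrix genes had 2 of 13 higher with a median of 0.27. Of all genes 8.27% were higher, with a median of 0.15, and 13 members are too few to set the shares apart. The higher members were Fn1, the fibronectin gene, at 1.58 and 6.46 RPKM, and Sparc, at 26.9 and 57.5. Sparc lay under the limit after median-of-ratios scaling.

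Neuronal genes lay within the limit, on the deposited scale, with 1 exception among the lists of synapse, receptor, channel and striatal neuron genes. Markers of direct and indirect pathway neurons, the projection neurons that make up most of the striatum, had 1 of 26 members higher and 0 lower (median 0.24, 0.01 after median-of-ratios scaling). That member was Penk, the enkephalin precursor of indirect pathway neurons, at 236 and 474 RPKM, against 432 in sham, with a fold of 1.00 at the limit. Gpr6, a receptor of the same neurons, was at 15.1 and 28.1 RPKM and Pde1b, a phosphodiesterase, at 159 and 257. Presynaptic genes had 25 of 29 folds below 0 and 0 past the limit (median -0.19), with Rims1, which docks vesicles, at 3.71 and 1.62 RPKM. Receptor, channel and interneuron lists had medians of 0.07, -0.08 and -0.02 with 0 members past the limit. Over all 32 receptor genes listed the median was 0.03. All 28 marker genes of striatal projection neurons were above 0 RPKM in all 5 libraries.

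Genes listed as cortical excitatory neuron markers had 12 of 13 folds below 0 and 0 past the limit (median -0.45). The list holds genes at high levels in this striatal tissue, such as Nrgn at 715 and 664 RPKM. How far it measures cortical tissue was not tested. After median-of-ratios scaling 3 of 13 were lower (median -0.62), and with GC centring 1 was (median -0.57). Neurod2, a cortical transcription factor, was at 5.24 and 2.42 RPKM, Tbr1 at 3.71 and 1.71, and Slc17a7 at 86.6 and 56.5. Of the choroid plexus markers 1 passed the limit. Ttr, the transthyretin gene of that tissue, was at 303 RPKM at day 1 and 19.6 at day 3 (log2 fold -3.88), after 77.4 in sham and 729 at 4 hours, and at 0.205 at day 10. Over all 16 choroid markers 13 folds were below 0, with a median of -0.05. Of the 16, 4 reached 1 RPKM, and the others analysed, Folr1, Enpp2 and Car12, had folds of -0.79, -0.11 and -0.13. The summed level of these 4 genes was 309.9 RPKM at day 1 and 25.2 at day 3. How much neighbouring tissue the pooled punches held was not measured, and its part in the neuronal values was not tested.

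Some red cell and myelin genes were lower at day 3, with 2 of 8 and 3 of 17 past the limit. Haemoglobin genes report blood left in the tissue. Hbb-bs was at 922 and 296 RPKM (log2 fold -1.64, ratio 0.321, interval 0.311 to 0.331) and Hbb-bt at 677 and 224, whereas the alpha chains Hba-a1, at 693 and 390 RPKM, and Hba-a2, at 709 and 417, stayed within the limit. Among the other red cell genes, Alas2 (-0.53), Bpgm (-0.44) and Hbq1b (0.15) were also within it. After median-of-ratios scaling 4 of 8 were lower in place of 2. The near-identical alpha genes and beta genes may share reads. Myelin genes had 3 of 17 lower and 0 higher (median -0.14): Mbp, myelin basic protein, at 1029 and 480.5 RPKM, Mobp at 99.9 and 49.1, and Opalin at 45.2 and 19.2. Oligodendrocyte precursor markers had 3 of 12 higher and 1 lower (median 0.64, with 1 higher after median-of-ratios scaling), with Gpr17, of newly formed oligodendrocytes, at 1.17 and 3.68 RPKM and Bcas1 at 62.8 and 25.5.

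Cytosolic ribosomal protein genes had 0 of 51 members past the limit (median -0.09, -0.33 after median-of-ratios scaling and -0.03 centred by GC content). Nuclear oxidative phosphorylation genes had 0 of 34 (median -0.09) and proteasome genes 0 of 29 (median 0.01, -0.19 after median-of-ratios scaling). Mitochondrially encoded genes had 2 of 13 lower, mt-Co1 and mt-Co3, and a median of -0.31, with 12 of 13 folds below 0. After median-of-ratios scaling 4 of 13 were lower (median -0.56), and with GC centring 1 was (median -0.12). Glycolysis genes had 1 of 16 higher, Eno1, at 162 and 341 RPKM (median 0.38, 0.14 after median-of-ratios scaling), which lay under the limit with that scaling and with GC centring.

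Small RNA loci also separated the libraries. Of 212 loci annotated as microRNA, 69 were higher and 4 lower (32.5% higher, against 8.27% of all genes). The shares rest on unlike read counts, because hairpins are short and a few reads sufficed for a call. On Mir125b-1, of 77 bases, 4 reads at day 3 gave 1.23 RPKM and a log2 fold of 1.16. On a gene of 2 kb 1 read at day 3 was worth 0.0118 RPKM. Among hairpins of known brain microRNAs, a set chosen after its values were seen, the 3 miR-9 loci stood out. Mir9-1 (chr3:88215598-88215686) had 1 read at day 1 and 52 at day 3, Mir9-2 (chr13:83738814-83738885) 0 and 51, and Mir9-3 (chr7:79505264-79505353) 2 and 52. The same loci had 77 to 79 reads at 4 hours, 1 to 3 in sham and 0 to 1 at day 10. The 3 copies share their mature sequence, so their reads cannot be assigned to a copy and are not 3 separate measurements. Mir99a had 0 and 22 reads, Mir128-1 had 0 and 10, Mir128-2 had 0 and 9, and Mir125b-1 and Mir125b-2 each had 0 and 4. In the same order these loci had 26, 6, 12, 14 and 13 reads at 4 hours. In sham they had 5, 1, 0, 1 and 0, and at day 10 each had 0. With 1 library per time, a difference in small RNA content between libraries cannot be told apart from a difference between times. A count of 0 in the day 1 library allows up to 3 reads. The mature forms are printed to show what the loci share, 5′ to 3′ with the seed (bases 2 to 8) in capitals, from RefSeq on GRCm38.p6.
miR-9-5p: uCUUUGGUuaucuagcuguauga
miR-128-3p: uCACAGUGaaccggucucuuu
miR-125b-5p: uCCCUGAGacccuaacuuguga
miR-99a-5p: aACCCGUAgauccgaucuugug
The 3 miR-9 hairpins carry the same mature miR-9-5p, both Mir128 hairpins the same miR-128-3p and both Mir125b hairpins the same miR-125b-5p, and no seed is shared between these 4. Whether these reads come from precursor or mature molecules was not tested. Some let-7 loci had as many or nearly as many reads in sham as at day 3: Mirlet7f-1 had 7 reads in sham, 0 at day 1 and 7 at day 3, and Mirlet7f-2 had 9, 2 and 10.

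**Figure D5:**
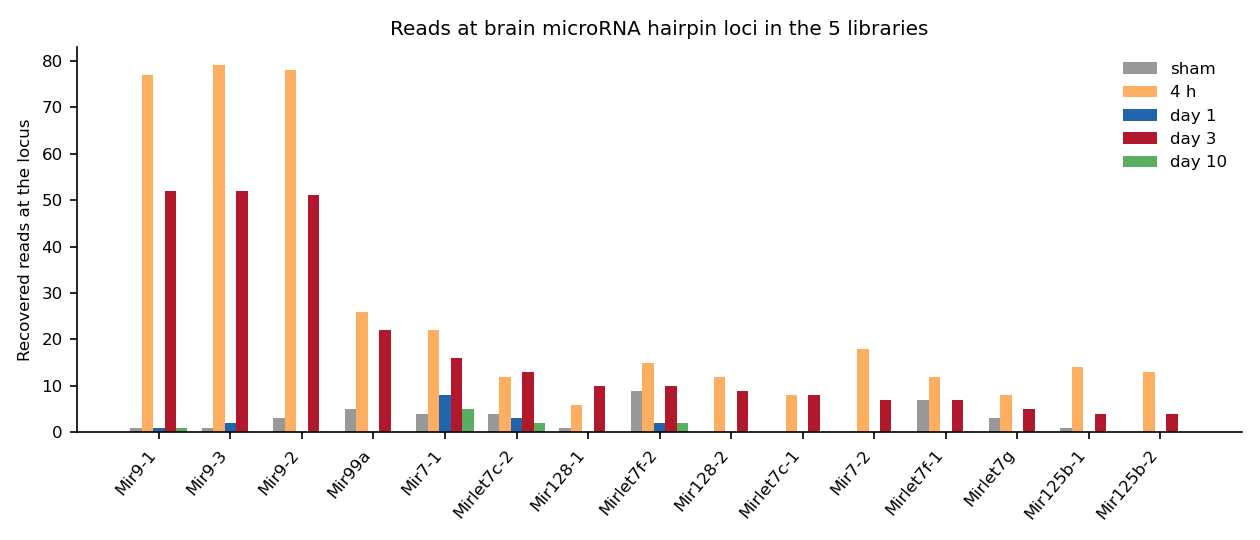
Bars give the recovered reads at 15 hairpin loci of brain microRNAs in each of the 5 libraries. The 3 miR-9 loci reach 51 to 52 reads at day 3 and 77 to 79 at 4 hours, against at most 3 in each of the other libraries.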

How the data were processed

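Total RNA from pooled tissue was sequenced as 5 libraries, of which the day 3 and day 1 libraries were compared. The authors deposited RPKM values per gene and pair values of log2 fold and GFOLD, per the file headers. Trimmomatic 0.36, HISAT2 2.1.0, StringTie 1.3.4d and the GRCm38 build are named in the submitters' processing notes. For the annotation release and for whether counting used strand, nothing is given in the sources used here. Overlapping genes on opposite strands therefore cannot be separated.

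Gene positions and exon lengths came from GENCODE M21, which matched 19179 of 19221 genes. From the RPKM values, log2 folds were computed with a pseudocount of 1 for genes with at least 1 RPKM at day 1 or day 3, using Python 3.11.15, pandas 2.3.3, numpy 2.4.6, scipy 1.17.1 and matplotlib 3.10.9. Reads were recovered from RPKM, exon length and library total, and both mates were counted as 1 in the intervals, which were available for 10318 genes (89.6%). The computation was tested on simulated data.

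The gene lists and the comparison itself were chosen with earlier results of these data known. Named genes are the 15 protein-coding genes with the largest and the 15 with the smallest fold, up to 4 members of each list in the direction of its median and up to 3 past the limit in the other direction, and the members of the CC chemokine, haemoglobin, MHC class II, cathepsin and microglia lists. Some members of these lists, though counted in them, are not reported here by name. Other named genes were chosen after their values were seen. Alternatives were the pseudocount, the filter, the scaling, the gene types, the size limit, the counting interval, the authors' GFOLD value and centring by GC content.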

Additional observations from a re-analysis of the deposited data

How the results depend on the processing

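With 1 pooled library per time, neither the spread between animals nor the effect of any library could be measured, and depth bounds only counting error. The count of genes higher at day 3, 953, became 1494 with a pseudocount of 0.1, 624 with a floor of 5 RPKM, 633 with trimmed mean of M values scaling, 623 among protein-coding genes, and 349 and 165 with size limits of 1.5 and 2 on the log2 scale. The count of lower genes, 120, became 244 with a pseudocount of 0.1, 227 with median-of-ratios scaling, 196 with trimmed mean of M values scaling, and 42 and 23 with the larger size limits. The other alternatives kept both counts within 1.5 times. They include the GFOLD value of the authors' deposited table, with 994 higher and 106 lower, and centring within 20 bins of GC content, with 865 and 108, which was chosen after seeing the data. Of the 953 and 120 genes, 790 and 81 were also called by GFOLD, and 790 and 94 after GC centring. Of the list medians at least 0.3 from 0, 1 changed direction under any alternative, that of T and NK cells, from 0.35 to -0.95 with the floor of 5 RPKM, which leaves 2 genes. Over all 16 T and NK cell genes in the table the median was 0.02. Nearer 0, 7 of 58 medians changed sign with median-of-ratios scaling and 1 with GC centring. Of the 176 named genes past the limit, 0 changed sign under the alternatives that could be computed for single genes. The cause of these shifts was not tested, except that a floor, a gene type or a larger limit leaves fewer genes to call. No paired analysis was possible because each time has 1 library.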

Other observations

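Processed pseudogenes were called higher at day 3 more often than protein-coding genes. Of 963 analysed, 177 were higher and 1 was lower (18.4% higher, median fold 0.47), against 623 of 9115 protein-coding genes. Reads of a pseudogene and its parent cannot be told apart where their sequences match, so these loci are no separate measurements. Of all genes analysed, 8.27% were higher and 1.04% lower. Among 109 small nucleolar RNA loci 12 were higher, a share near that of all genes. In the same loci 12 were lower, a share well above that of all genes. Among 440 antisense loci 27 were higher and 3 lower, both below the shares of all genes, so these loci did not stand out.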
